A study of Saccharomyces cerevisiae with 4 samples.

Results

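The 37 genes described here encode proteins that build the spore of Saccharomyces cerevisiae: the prospore membrane that encloses each daughter nucleus, the layered spore wall laid down inside it, and the kinases and RNA-binding proteins that act during their assembly. They were taken by name from the gene tables of both strains, and they are 37 of 6664 nuclear genes listed. All 37 were found under their names, at coordinates equal to those of the R64 reference. RNA was collected after 4 h in sporulation medium at 30 °C from SK1 strains, a laboratory background that sporulates efficiently. The strain ndt80pch2 lacks NDT80 and PCH2, which encodes a meiotic chromosome ATPase, and it was set against ndt80, which lacks NDT80 alone, with 2 libraries each. Both strains therefore lack Ndt80, and no strain with NDT80 was among the samples, so the levels below cannot be set against those of sporulating cells with Ndt80. One label of the ndt80pch2 samples names only the NDT80 deletion, while their titles name both.

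Sporulation in yeast runs through waves of transcription. Early genes, which serve replication and recombination, are switched on by Ime1 at promoters that carry the URS1 element, where Ume6 binds. Ndt80 then turns on the middle genes, most of them through the middle sporulation element (MSE), as cells leave meiotic prophase, and many spore-building genes belong to this wave. The repressor Sum1 also binds a class of MSEs and keeps those genes off in growing cells. The late genes of the spore wall, such as DIT1, DIT2 and SPS100, follow. Cells without Ndt80 stop in prophase and make no spores, which leads to the question of which of these genes were nonetheless transcribed.

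The deposited tables give each gene a single TPM-like value in each strain (reads divided by coding length and scaled to a fixed total), and the reads behind them were recovered for each library. Libraries C and D are ndt80pch2, and libraries A and B are ndt80; which of each pair was replicate 1 is not known. They held 1713492 and 1714346 nuclear reads for C and D, and 2150159 and 2375240 for A and B. PCH2 had 0 reads in both ndt80pch2 libraries, where 3 reads would be 1.26 and 1.29 TPM, and 710 and 776 reads in the ndt80 libraries. NDT80 had 0 reads in all 4, which allows up to 1.16 TPM. Markers of haploid cells were low, with MFA1 and MFA2 at 0 in all 4 libraries and MF(ALPHA)1, STE2 and STE3 between 4.30 and 16.8 TPM. The TPM of 3 reads was not worked out for MFA1 and MFA2, so their 0 does not place them below the other markers. The RNA came from whole cultures, so fewer cells expressing a gene and less RNA per cell cannot be told apart.

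The deposited ndt80 column cannot be read row by row for most of these genes. For 35 of the 37, its value averages the gene in library A with the gene standing in the same row of a list without mitochondrial genes in library B; ADY3 and ADY4 stand above that break. The authors' deposited table lists SMA2 at 0.329 in ndt80pch2 and at 161 in ndt80, a row that also holds SML1, while its recovered ndt80 mean was 1.48 TPM. In the authors' deposited table as printed, 11 members, SMA2 among them, stood at least 2-fold apart between the strains. Of the 36 members with a mean of at least 1 TPM, which leave out SMA2, 10 did so as printed and 0 after recovery; SMA2 has too few reads for a fold.

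Stretches before the start codons of 7 members are shown because they carry both searched motifs, mark the ends of the range of levels or hold no match. They are the 250 bases before the start codon on the coding strand, 5′ to 3′, from the RefSeq R64 assembly, in which yeast genes begin at the start codon. Capitals mark matches to CACAAAA, to CACAAAT, to CGCAAAA and to CGCAAAT (the MSE core) and to GGCGGC (the URS1 core), on either strand. MPC54 (chrXV:667180-667429, minus strand), ADY3 (chrIV:28776-29025, minus strand) and SMK1 (chrXVI:666030-666279, plus strand) are the 3 members with both. SPS2 (chrIV:1485304-1485553, minus strand) had the highest mean level of the members and SMA2 (chrXIII:141534-141783, minus strand) the lowest. SSP2 (chrXV:789858-790107, minus strand) and SPS100 (chrVIII:379200-379449, minus strand) have no match to either motif.
MPC54: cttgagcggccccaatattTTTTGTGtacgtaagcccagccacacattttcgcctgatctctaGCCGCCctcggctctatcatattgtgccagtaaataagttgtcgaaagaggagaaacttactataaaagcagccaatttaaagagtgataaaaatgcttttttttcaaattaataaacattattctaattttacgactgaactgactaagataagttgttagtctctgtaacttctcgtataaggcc
ADY3: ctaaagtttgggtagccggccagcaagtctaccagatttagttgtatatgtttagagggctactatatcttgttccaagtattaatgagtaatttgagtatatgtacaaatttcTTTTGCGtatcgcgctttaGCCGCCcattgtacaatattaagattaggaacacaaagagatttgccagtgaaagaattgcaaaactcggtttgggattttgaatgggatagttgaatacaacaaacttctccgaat
SMK1: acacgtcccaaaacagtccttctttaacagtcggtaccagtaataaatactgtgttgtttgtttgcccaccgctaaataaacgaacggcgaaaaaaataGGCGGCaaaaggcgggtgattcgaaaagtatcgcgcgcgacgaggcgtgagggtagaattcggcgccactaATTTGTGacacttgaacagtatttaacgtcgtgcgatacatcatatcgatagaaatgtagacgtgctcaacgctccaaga
SPS2: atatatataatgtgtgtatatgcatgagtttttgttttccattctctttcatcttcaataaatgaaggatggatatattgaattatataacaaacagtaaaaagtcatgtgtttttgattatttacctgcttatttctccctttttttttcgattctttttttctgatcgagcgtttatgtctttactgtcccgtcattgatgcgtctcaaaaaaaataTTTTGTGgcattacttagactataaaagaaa
SMA2: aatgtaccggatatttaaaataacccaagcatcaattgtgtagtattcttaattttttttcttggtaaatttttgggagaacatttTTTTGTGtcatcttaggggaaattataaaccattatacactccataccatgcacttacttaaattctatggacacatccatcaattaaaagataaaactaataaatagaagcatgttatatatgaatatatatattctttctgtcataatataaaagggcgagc
SSP2: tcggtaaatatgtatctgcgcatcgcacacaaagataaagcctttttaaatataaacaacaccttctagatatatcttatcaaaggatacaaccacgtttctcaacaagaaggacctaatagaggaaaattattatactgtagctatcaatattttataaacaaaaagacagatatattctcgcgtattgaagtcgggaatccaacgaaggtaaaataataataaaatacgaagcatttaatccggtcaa
SPS100: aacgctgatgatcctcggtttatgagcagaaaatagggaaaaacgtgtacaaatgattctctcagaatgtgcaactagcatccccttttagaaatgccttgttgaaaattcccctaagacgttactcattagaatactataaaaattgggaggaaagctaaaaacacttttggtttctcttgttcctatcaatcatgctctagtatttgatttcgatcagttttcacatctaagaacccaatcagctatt

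The matches lie at varied places in these stretches. In MPC54, CACAAAA reads on the other strand from 231 to 225 bases before the start codon and GGCGGC, also on the other strand, from 187 to 182. In ADY3, CGCAAAA and GGCGGC lie on the other strand at 136 to 130 and 117 to 112 bases. In SMK1, GGCGGC is on the coding strand at 151 to 146 bases and CACAAAT on the other strand at 80 to 74. The SPS2 match, CACAAAA on the other strand, is 31 to 25 bases from the start codon, and that of SMA2, the same 7 letters, is 164 to 158 bases away.

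Reads of most spore-building genes were found in both strains. Of the 37 members, 36 had more than 3 reads in each of the 4 libraries, against 80.8% of nuclear genes. A mean of at least 10 TPM was reached by 33 members (89.2%) in ndt80pch2 and by 34 (91.9%) in ndt80, against 77.4% and 78.5% of the 6615 nuclear genes with recovered reads. This mark is below STE2, a haploid marker read as low above, at 13.8 and 13.0 TPM in C and D and 16.6 and 16.8 TPM in A and B. LOH1, ADY4 and SPO75 passed it near that level in both strains, with strain means between 13.2 and 17.3 TPM. SPO77, at 10.6 TPM, and SMA1, at 16.2 TPM, passed it near or below that level in ndt80pch2. In ndt80, DIT1, at 12.1 TPM, and OSW2, at 12.3 TPM, passed it below that level. The median member had 44.7 TPM in ndt80pch2 and 49.5 TPM in ndt80, close to the medians of all nuclear genes, 40.5 and 46.4 TPM. Of the 6664 nuclear genes listed, 5989 have IDs in the R64 reference, as all 37 members do. The shares and medians of all genes also include listed IDs outside that reference, and were not taken without them. In ndt80pch2, 21 members lay above the median of all genes, and in ndt80, 19 did. Member means ran from 0.329 to 243.8 TPM in ndt80pch2 and from 1.48 to 204.9 TPM in ndt80.

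**Figure D1:**
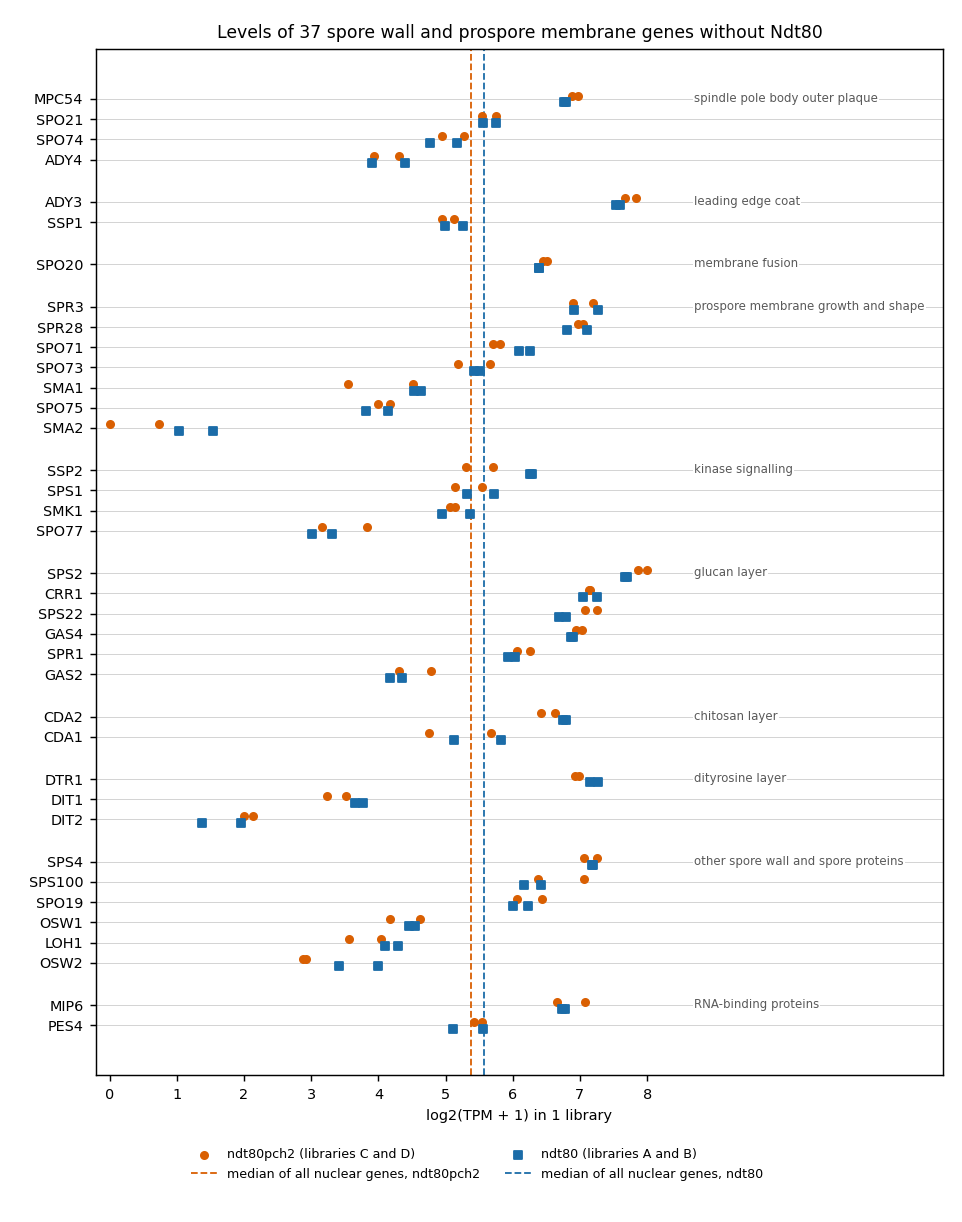
Levels of the 37 members in each library, as log2(TPM + 1) on the horizontal axis, grouped by role; orange circles are ndt80pch2 libraries C and D, blue squares are ndt80 libraries A and B, and dashed lines are the medians of all nuclear genes. SPS2 and ADY3 stand at the right in all 4 libraries and SMA2 and DIT2 at the left, and in most rows the 2 colours lie close together.

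Among genes of the spindle pole body outer plaque, where the prospore membrane starts, all 4 were above 10 TPM in both strains. MPC54, a structural component of this meiotic plaque, had 124 and 116 TPM in ndt80pch2 libraries C and D, against 110 and 108 TPM in ndt80 libraries A and B. SPO21 (also called MPC70), another plaque component, had 53.0 and 45.5 TPM in ndt80pch2 and 52.7 and 46.2 TPM in ndt80. For MPC54 both ndt80pch2 libraries were above both ndt80 libraries, as for 9.39% of all genes tested. For SPO21 the libraries of the 2 strains overlapped. SPO74 averaged 33.8 TPM in ndt80pch2 and 30.7 TPM in ndt80, and ADY4 averaged 16.5 TPM in ndt80pch2 and 17.0 TPM in ndt80. ADY4 ends 20 bases from BUR2, which is on the opposite strand and averaged 77.6 TPM in ndt80pch2 and 72.8 TPM in ndt80; the strand setting of the counting is not given, so overlapping antisense reads cannot be told apart.

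The coat at the leading edge of the growing membrane was represented by 2 genes at unlike levels. ADY3, which recruits other coat proteins to that edge, had 202 and 226 TPM in ndt80pch2, against 185 and 192 TPM in ndt80, higher than 88.7% and 85.9% of nuclear genes. SSP1, the coat component needed to keep the membrane opening in shape, had 29.9 and 34.1 TPM in ndt80pch2 and 30.8 and 37.2 TPM in ndt80. ADY3 was therefore in the upper part of all genes and SSP1 below the median of all genes in both strains. SPO20, the sporulation t-SNARE through which vesicles fuse to make the membrane, had 86.1 and 90.0 TPM in ndt80pch2 and 83.3 and 83.2 TPM in ndt80.

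Genes for growth and shape of the prospore membrane spanned the whole range of the members. SPR3 and SPR28 encode septins, filament-forming proteins that line the prospore membrane. SPR3 had 118 and 145 TPM in ndt80pch2, against 153 and 119 TPM in ndt80. SPR28 had 124 and 132 TPM in ndt80pch2, against 137 and 112 TPM in ndt80. Both septin genes overlapped between the strains and lay well above the median gene. SPO71, which acts with Vps13 and Spo73 in membrane extension, had 51.4 and 55.3 TPM in ndt80pch2, against 75.3 and 67.5 TPM in ndt80. Its libraries did not overlap, with ndt80pch2 below ndt80, as for 42.4% of all genes tested. SPO73 averaged 42.5 TPM in ndt80pch2 and 43.1 TPM in ndt80, SMA1 16.2 TPM in ndt80pch2 and 22.9 TPM in ndt80, and SPO75 15.9 TPM in ndt80pch2 and 14.9 TPM in ndt80. Of SMA1's neighbours, ERG10 and SKS1 were far more abundant, ERG10 at 491.5 TPM in ndt80pch2 and 575 TPM in ndt80.

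SMA2, required for prospore membrane formation, was the 1 member near the limit of detection. It had 0 and 1 reads in ndt80pch2 and 2 and 4 reads in ndt80, where 3 reads correspond to 1.93 and 1.98 TPM in libraries C and D and to 1.57 and 1.44 TPM in A and B. At this depth no difference between the strains was detectable. SMA2, with a mean under 1 TPM, was left out of the main test and entered only the alternatives with no filter and without library C. Floors of this kind cover counting error only. The limma-trend intervals given below rest on the spread between libraries.

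Of the 4 genes of kinase signalling in spore formation, SSP2, SPS1 and SMK1 were near the median of all genes or somewhat to either side of it, and SPO77 was low. SSP2, the activator of the Smk1 kinase, had 60 and 78 reads, or 38.4 and 51.1 TPM, in ndt80pch2, against 148 and 158 reads, or 77.1 and 75.3 TPM, in ndt80. Both ndt80pch2 libraries lay below both ndt80 libraries, as for 42.4% of all genes tested. SPS1, a Ste20-family kinase, had 45.5 and 34.2 TPM in ndt80pch2 and 39.1 and 52.0 TPM in ndt80. SMK1, the meiosis-specific MAP kinase of spore wall assembly, averaged 33.4 TPM in ndt80pch2 and 35.0 TPM in ndt80, and SPO77, which works with Sps1, averaged 10.6 TPM in ndt80pch2 and 7.98 TPM in ndt80. SPO77 had 7.96 and 13.3 TPM in ndt80pch2, against 8.92 and 7.04 TPM in ndt80, so library D alone was above 10 TPM and the strains overlapped.

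Genes of the inner, glucan-rich part of the wall held the highest member and a median of 133 TPM in ndt80pch2 and 111 TPM in ndt80. SPS2, of the Ecm33 family of GPI-anchored wall proteins, had 233 and 255 TPM in ndt80pch2, against 203 and 207 TPM in ndt80, without overlap. Its paralogue SPS22 had 134 and 152 TPM in ndt80pch2, against 102 and 110.0 TPM in ndt80, also without overlap. Both ndt80pch2 libraries were above both ndt80 libraries in 9.39% of all genes tested. CRR1, a putative glycoside hydrolase of the spore wall, had 139 and 142 TPM in ndt80pch2, against 131 and 152 TPM in ndt80, with overlap. GAS4, a glucanosyltransferase that lengthens glucan chains, averaged 126 TPM in ndt80pch2 and 117 TPM in ndt80. GAS2, of the same enzyme family, averaged 22.7 TPM in ndt80pch2 and 18.3 TPM in ndt80. SPR1, an exo-1,3-beta-glucanase, averaged 70.7 TPM in ndt80pch2 and 62.4 TPM in ndt80. SPS2 and SPS1 are neighbours on chromosome IV on the same strand, 262 bases apart, and SPS2 averaged 244 TPM in ndt80pch2 and 205 TPM in ndt80, against 39.9 and 45.5 TPM for SPS1 in the same strains. SPS2 and SPS22 are related in sequence, and how reads shared by relatives were counted is not given.

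The outer layers were uneven. Chitosan, made by deacetylation of chitin, depends on CDA1 and CDA2. CDA2 had 84.4 and 98.1 TPM in ndt80pch2, against 110.2 and 107 TPM in ndt80. CDA1 had 26.0 and 50.0 TPM in ndt80pch2, against 34.0 and 55.7 TPM in ndt80, and its libraries differed within each strain by more than the strains did. DIT1 and DIT2 make the dityrosine precursor of the outermost layer, DIT2 being a cytochrome P450, and DTR1 encodes the transporter that exports it from the spore cytoplasm.

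The dityrosine genes separated by level. DTR1 had 121 and 125 TPM in ndt80pch2, against 153 and 141 TPM in ndt80. DIT1 had 8.42 and 10.4 TPM in ndt80pch2, from 19 and 23 reads, against 12.6 and 11.5 TPM in ndt80, from 35 reads in each library. DIT2 had 7 and 6 reads in ndt80pch2, or 3.40 and 2.98 TPM, against 4 and 8 reads in ndt80, or 1.58 and 2.89 TPM. Both ndt80pch2 libraries were below both ndt80 libraries for DTR1 and DIT1, as for 42.4% of all genes tested, and the DIT2 values rest on too few reads to order the strains. DIT1 and DIT2 are divergent, with 898 bases between their start codons on chromosome IV. YDR401W overlaps DIT2 on the opposite strand and averaged 2.55 TPM in ndt80pch2 and 3.99 TPM in ndt80. The few DIT2 reads therefore cannot be assigned to DIT2 with certainty. How reads in this overlap were counted is not given, so the DIT2 level may be too high or too low.

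SPS100, the other late gene, was far above DIT1 and DIT2. This spore wall maturation gene had 82.2 and 132 TPM in ndt80pch2, against 71.1 and 84.5 TPM in ndt80, higher than 75.9% of nuclear genes in ndt80pch2 and 65.1% in ndt80. Library D was the highest of the 4, and library C lay between the ndt80 libraries. SPS4, whose transcript was found among sporulation-specific mRNAs, had 151 and 133 TPM in ndt80pch2, against 144 and 146 TPM in ndt80. The remaining genes of the outer wall and spore surface were lower. SPO19, a GPI-anchored protein of the prospore membrane, averaged 75.9 TPM in ndt80pch2 and 68.4 TPM in ndt80, and OSW1, a protein of spore wall integrity, averaged 20.3 TPM in ndt80pch2 and 21.5 TPM in ndt80. LOH1 averaged 13.2 TPM in ndt80pch2 and 17.3 TPM in ndt80, and OSW2, another outer wall gene, 6.47 TPM in ndt80pch2 and 12.3 TPM in ndt80. OSW2 was, with DIT1, DIT2 and SMA2, 1 of the 4 members below 10 TPM in ndt80pch2; in ndt80 the 3 members below were SPO77, DIT2 and SMA2.

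MIP6 and PES4 encode related RNA-binding proteins that act on transcripts of the later phases of sporulation. MIP6 had 99.8 and 134 TPM in ndt80pch2, against 105.1 and 109 TPM in ndt80. PES4 had 45.5 and 41.8 TPM in ndt80pch2, against 33.6 and 46.3 TPM in ndt80. Both overlapped between the strains.

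The difference between the strains was then examined by limma-trend on log2(TPM + 1), fitted over 5752 nuclear genes with a mean of at least 1 TPM, of which 36 were members. Of these 36, 0 were called at an adjusted p under 0.05, against 0.0174% of all genes tested, which is PCH2 alone. The lowest adjusted p of a member was 0.253. By limma-voom on the recovered reads 0 members were called as well, against 0.452% of all genes tested, and the lowest adjusted p of any member in any setting was 0.0826. The labels do not say that the libraries of a strain came from separate cultures, so these p-values measure the spread between libraries, which may be technical. With 2 libraries against 2, an exact two-sided permutation test of a single gene cannot go below 0.333.

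The median log2 fold change of all genes was -0.15, and fold changes below are relative to it; the p-values test the fold change before this centring. On this log2(TPM + 1) scale the change of low genes is understated. The median member stood at 0.14 relative to all genes, whose quartiles ran from -0.16 to 0.16, with 26 members above 0 and 10 below. At an unadjusted p under 0.05, 2 members, SPS22 and SPS2 (5.56%), were higher in ndt80pch2, against 2.69% of all genes, and 3, SSP2, SPO71 and DTR1 (8.33%), were lower, against 13.1% of all genes. This split depends on the scaling: after median-of-ratios scaling, 6 members, ADY3, MPC54, GAS4, SPR1, SPS2 and SPS22, were higher and SSP2 alone lower, against 6.53% and 3.73% of all genes. It also depends on single libraries: without library C, 5 members were higher and 1 lower, against 4.31% and 17.9% of all genes, and without library D, 1 was higher and 5 lower, against 3.01% and 13.2%. By limma-voom, 4 members (SPS22, SPS2, ADY3 and SPS100) were higher and 4 (SSP2, SPO71, OSW2 and DTR1) lower, against 3.32% and 11.7% of all genes. In TPM, both ndt80pch2 libraries exceeded both ndt80 libraries in 8 members (22.2%), against 9.39% of all genes. Both were below both in 8 (22.2%), against 42.4%, and the other 20 overlapped. The 8 above include DIT2, at 2.98 TPM in library D against 2.89 TPM in B, from 6 and 8 reads, too few to order the strains.

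SSP2 had the smallest p of the members, with a relative log2 fold change of -0.62 ± 0.16 (SE, n = 2 each), an unadjusted limma-trend p of 0.00308 and an adjusted p of 0.253. Its adjusted p ran from 0.0826 with limma-voom to 0.768 over the 9 alternatives, and its fold change from -0.84 to -0.41. SPS22 followed at 0.58 ± 0.11 (limma-trend adjusted p = 0.282), and 0.0937 to 0.768 over the alternatives. SPO71 stood at -0.27 ± 0.13 (limma-trend adjusted p = 0.286), SPS2 at 0.40 ± 0.09 (0.297) and DTR1 at -0.11 ± 0.10 (0.304). These p-values test the change before centring. The 95% intervals of the relative change included 0 for SPO71 (-0.57 to 0.04) and DTR1 (-0.34 to 0.13). None of these 5 passed the test over all genes.

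**Figure D2:**
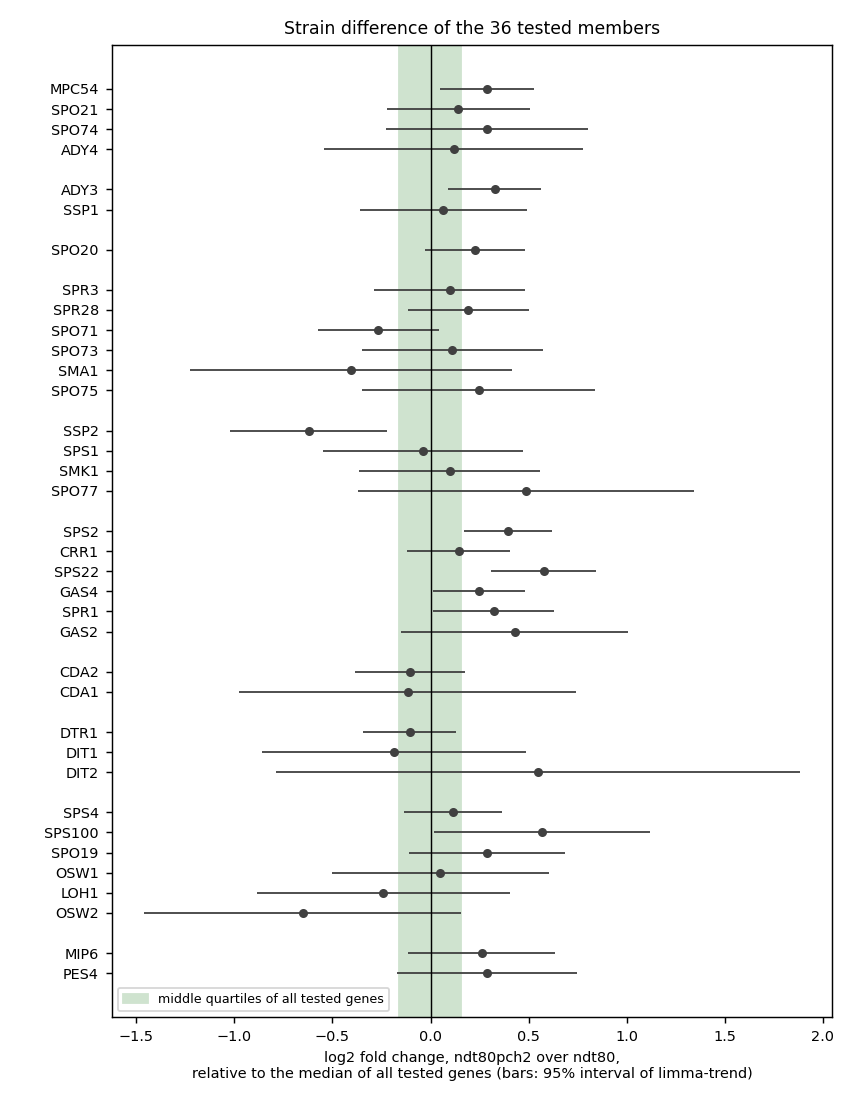
Relative log2 fold change, ndt80pch2 over ndt80, of the 36 tested members, in the same role order; points are limma-trend estimates, bars their 95% intervals, and the green band the middle quartiles of all tested genes. Bars that do not reach 0 belong to SSP2 on the left and to SPS22, SPS2, ADY3, MPC54, GAS4, SPR1 and SPS100 on the right (7 members, where 7.04% of all genes lie wholly above 0 and 3.46% wholly below); none of the 8 passed the adjusted test, and DIT2 has the widest bar.

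By role, all 6 glucan-layer genes stood above 0, with a median of 0.36 and a range from 0.14 for CRR1 to 0.58 for SPS22. The 4 outer plaque genes and both leading-edge genes were also above 0, with medians of 0.21 and 0.20. Both chitosan genes were below 0, at -0.11 for CDA2 and -0.12 for CDA1. Of all 5752 genes tested, 2876 stood above 0. Some of these directions rest on 1 library: without library C, CDA1 stood at 0.35, CDA2 at 0.0090 and ADY4 at -0.059. SSP1 also changed sign without library A or D. The glucan-layer genes, the other outer plaque genes and ADY3 kept their sign. The kinase genes were split, from -0.62 for SSP2 to 0.49 for SPO77, as were the genes for membrane growth, from -0.41 for SMA1 to 0.24 for SPO75. The 95% intervals were wide for low genes: OSW2, at -0.65, had one from -1.46 to 0.16, and DIT2, at 0.55, one from -0.79 to 1.88. For the abundant SPO20 the interval ran from -0.03 to 0.48, and for SPS4 from -0.14 to 0.37. The late genes showed no common direction, since SPS100 stood at 0.57 with an interval from 0.02 to 1.12 and DIT1 at -0.19 with one from -0.86 to 0.49.

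Other genes were measured for comparison. A list of 36 further genes, chosen around the prospore membrane and spore wall, had a median of 105.6 TPM in ndt80pch2 and 105.5 TPM in ndt80. It holds septins, SNAREs and glucan synthases that also serve growing cells, and also regulators that are no part of these structures, such as RIM4. Its highest were RIM4, the meiotic translational repressor, at 2245 TPM in ndt80pch2 and 2266 TPM in ndt80, and FKS3, a glucan synthase homologue, at 938.7 TPM in ndt80pch2 and 870.7 TPM in ndt80. All 36 were above 10 TPM in both strains, and 0 were called by limma-trend, with 2 (SPR6 and OSW5) higher and 5 (MUM3, SPC42, CDC11, SSO1 and GSC2) lower at an unadjusted p under 0.05, where 2.69% of all genes were higher and 13.1% lower. The 19 measured early meiotic genes had median levels of 318 TPM in ndt80pch2 and 442 TPM in ndt80, but these medians fall on different genes and are no strain difference: relative to all genes, 16 of the 19 log2 fold changes were above 0 and 3 below, with a median of 0.17. IME2, the kinase of meiotic entry, was the most abundant, with 1041 TPM in ndt80pch2 and 959.7 TPM in ndt80, followed by SPO22 at 998.4 and 894.8 TPM in the same strains. The lowest early genes were MEI4, at 84.0 TPM in ndt80pch2 and 100.5 TPM in ndt80, and SPO11, at 87.2 and 94.4 TPM. SPO11, the nuclease of meiotic breaks, was thus below the means of SPS2, ADY3 and MPC54 in each strain. Of the early genes 0 were called by limma-trend, with SPO16 and GMC2 higher and DMC1 lower at an unadjusted p under 0.05. DMC1, the meiotic strand exchange protein, averaged 242 TPM in ndt80pch2 and 483 TPM in ndt80 and was called by limma-voom.

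Regulators of early and of middle genes, together with cyclins, were also read. IME1 had 549.8 TPM in ndt80pch2 and 563 TPM in ndt80, HST1, the deacetylase partner of Sum1, 280.6 and 263 TPM, and SUM1 60.2 and 67.9 TPM. CLB1, a B-type cyclin of the middle wave, had 5 and 6 reads in ndt80pch2 and 16 and 17 reads in ndt80. CLB6, an S-phase cyclin, had 1 and 2 reads in ndt80pch2 and again 1 and 2 reads in ndt80. CDC5, the polo kinase that ends prophase, averaged 31.0 TPM in ndt80pch2 and 39.3 TPM in ndt80. CLB1 was thus, in ndt80pch2, near the level of DIT2, while CDC5 was near that of SMK1 and SSP1. Of the 12 regulators and cyclins, 10 could be tested, 0 were called by limma-trend, and 0 had an unadjusted p under 0.05.

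**Figure D3:**
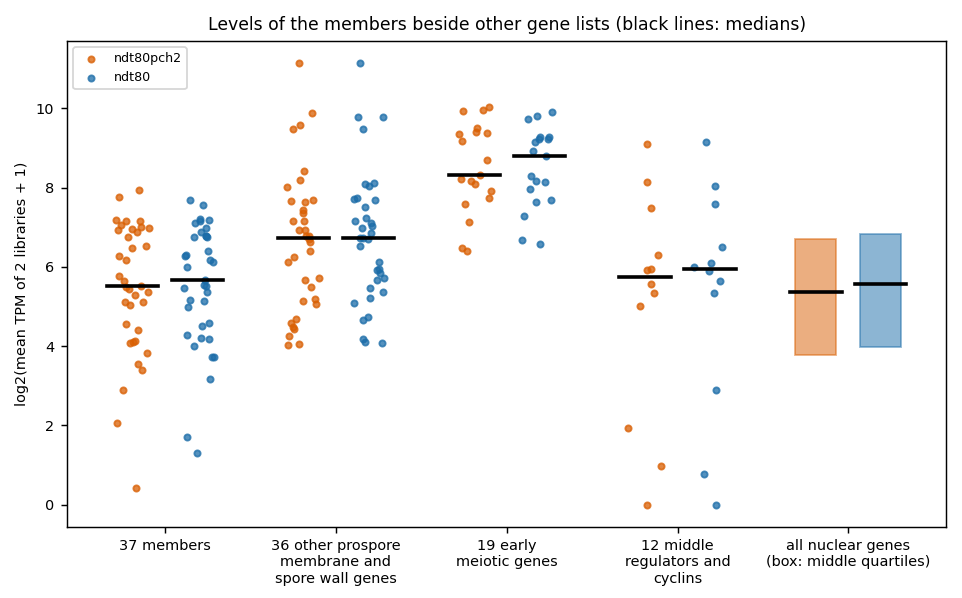
Mean level of each gene, as log2(mean TPM of 2 libraries + 1), for the 37 members, the list of 36 further genes, 19 early meiotic genes and 12 regulators and cyclins. The strain ndt80pch2 is in orange and left of ndt80 in blue. Black lines are medians and the boxes at the right the middle quartiles of all nuclear genes. The members spread about the median of all genes, and the early genes lie above it in both strains.

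Promoter letters were compared with levels. Matches to the MSE core, searched as CACAAAA and as CACAAAT, with CGCAAAA and with CGCAAAT, on both strands of the 250 bases before the start codon, occurred in 27 of 37 members (73.0%), against 17.1% of 5985 such windows of the genome. There were 32 matches, 14 on the coding strand and 18 on the other, with 21 to CACAAAA, 7 to CACAAAT, 3 to CGCAAAA and 1 to CGCAAAT. Their first bases lay 23 to 250 bases before the start codon, with a median of 141.5, and 5 members held 2 matches. GGCGGC occurred in 3 members (8.11%), against 4.18% of windows, and overlaps none of the MSE cores listed for them. The 10 members without an MSE core match were DIT1, DIT2, DTR1, OSW1, SPO20, SPO71, SPR1, SPS1, SPS100 and SSP2.

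Levels of members with and without a match overlapped. The 27 with an MSE core had a median of 43.6 TPM in ndt80pch2 and 44.9 TPM in ndt80, and the 10 without had 49.0 TPM in ndt80pch2 and 66.9 TPM in ndt80. In ndt80pch2 the means ran from 0.329 to 243.8 TPM with a match and from 3.19 to 123 TPM without. The 3 with GGCGGC had medians of 120.1 TPM in ndt80pch2 and 109 TPM in ndt80, with SMK1 well below MPC54 and ADY3. SPS2, at the top, and SMA2, at the bottom, both have CACAAAA on the other strand. DTR1, without a match, averaged 123 TPM in ndt80pch2 and 147 TPM in ndt80, and DIT2, also without one, 3.19 TPM in ndt80pch2 and 2.24 TPM in ndt80. A match is only a stretch of letters in this window, and no match says nothing of a factor's binding elsewhere.

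**Figure D4:**
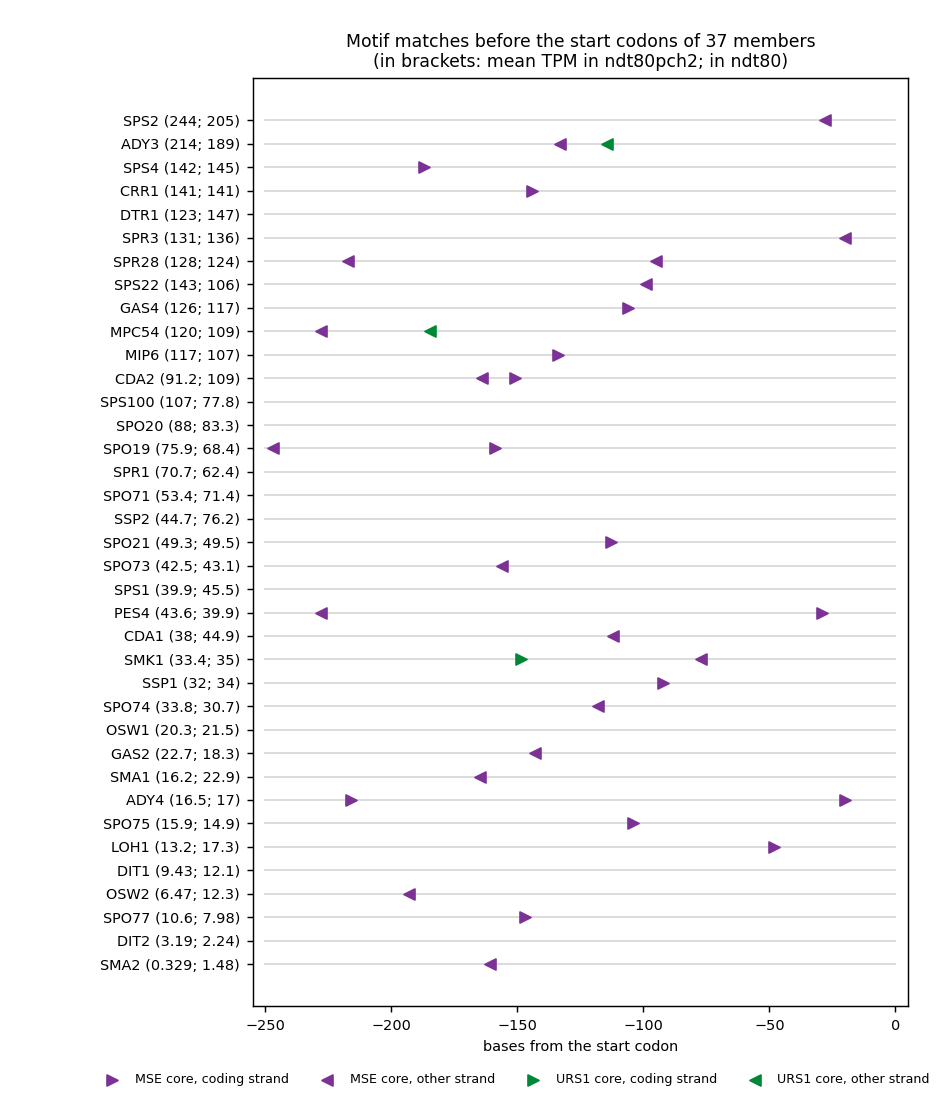
Positions of motif matches in the 250 bases before each member's start codon, in bases from the start codon, with the mean TPM in ndt80pch2 and then in ndt80 in brackets; purple triangles are MSE core and green triangles URS1 core matches, pointing right on the coding strand and left on the other strand. Matches are spread over the window, and rows without one occur at high and low levels.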

How the data were processed

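Per the labels, total RNA of SK1 cells was depleted of rRNA, enriched for mRNA and sequenced in pairs. The submitters' processing notes name HISAT2 2.1.0, DESeq2 2.11.40.6, HTSeq 0.9.1 and FastQC, beside the R64 (sacCer3) build, without their roles or order. The authors deposited 1 unnamed column per strain, entered here as another unit: from its values it is a TPM-like score, the mean of 2 libraries. The sources used here do not give the steps behind it.

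Multiplied by coding length, the deposited values are sums of whole multiples of 1 step per library. With 10 significant digits and a tolerance of 0.55 of the last digit, 99.8% of ndt80pch2 values above 0 had a whole-read solution. From row 94 of the ndt80 table, the first mitochondrial one, 99.6% did when library B was read from the gene holding that row number once the 18 mitochondrial genes are removed, and 9.17% when both libraries were read as the printed gene. The last 18 rows held library A alone, and all 18 were whole reads. Reads in all 4 libraries were obtained for 6615 of 6664 nuclear genes, and 49 were left out, HOP2 among them. Solving was tested on simulated columns, which cannot test the reading by row position.

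The main test was limma-trend (limma 3.58.1, R 4.3.3) on log2(TPM + 1) with genotype as the only term, a mean of at least 1 TPM and Benjamini-Hochberg adjustment over 5752 genes. The members and lists were chosen with earlier results of these data known, and the roles in sporulation come from general knowledge. Library values were planned for the 2 highest members of each role group, those with 3 reads or fewer, the 5 of smallest p and the late genes; other members are given by their means. SPO77 per library and the comparison list genes named by p, DMC1 among them, were chosen after their values were seen. MER2 and FKS2 are listed as REC107 and GSC2. Alternatives were median-of-ratios scaling, a pseudocount of 0.1, no filter, a filter of 10 TPM, limma-voom on recovered reads, a level of 5 TPM and leaving out each library. Recovery and motif searches ran in Python 3.11.15 (pandas 2.3.3, numpy 2.4.6) and figures in matplotlib 3.10.9.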

Additional observations from a re-analysis of the deposited data

How the results depend on the processing

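No member was called by limma under any alternative that kept all 4 libraries. The counts of members with at least 10 TPM stayed within 1.5 times the reported 33 and 34. With 37 members they could not rise past this margin, so it is a weak check. The 1 gene called over all genes became 25 with no filter, 5 with a filter of 10 TPM and 26 with limma-voom, and 0 to 1 when 1 library was left out, with 0 without library A or B. The 5 members at an unadjusted limma-trend p under 0.05, 2 higher and 3 lower, stood against 2.69% and 13.1% of all genes. With limma-voom they became 8, 4 higher and 4 lower, against 3.32% and 11.7% of all genes. The median member TPM in ndt80pch2 was 47.0 after median-of-ratios scaling and 49.6 to 50.0 with 1 library, and in ndt80 it was 46.9 after scaling and 52.7 to 55.7 with 1 library. On the coding strand alone, 13 members matched the MSE core and 1 matched GGCGGC.

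Of 321 pairs of member and alternative, 16 turned the sign of the relative log2 fold change, in 11 members, none of them called and all on leaving out 1 library. Without library C, CDA1 stood at 0.35, CDA2 at 0.0090, LOH1 at 0.0083, SMA1 at 0.086, ADY4 at -0.059 and SPO73 at -0.12. Without D, SPS1 stood at 0.14, OSW1 at -0.19, SPR3 at -0.068 and SSP1 at -0.042. Without A, SMK1 stood at -0.11 and SSP1 at -0.068. Without B, CDA1 stood at 0.23, SPS1 at 0.17, ADY4 at -0.12 and SPR3 at -0.076. The cause was not tested. A lone library is assumed to vary like the other strain's. No paired analysis was possible because the recovered libraries carry no replicate numbers. Depth limits SMA2 and DIT2, with at most 8 reads per library.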
